A study of Mus musculus with 12 samples.

Results

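Gucy2d, Cnga3, Pde2a and Car2 encode a cGMP signalling cascade of the necklace neurons of the mouse nose, and Ms4a6b, Ms4a6c, Ms4a7 and Ms4a15 belong to the family of membrane proteins reported as receptors of the same cells. The 8 genes were taken by symbol from the annotation of the array, with probes that carry 1 symbol. All 8 of 8 were measured, each by 1 probe, among 19937 genes in all. Every pool came from the olfactory epithelium of male C57BL/6 mice that had lived under 12 h of light and 12 h of darkness for 14 days or longer and were then kept in constant darkness. Tissue was collected every 4 h from circadian time (CT) 12 to CT56, and at each of the 12 times RNA of 4 mice was pooled for 1 array, from 48 mice in all. CT12 to CT32 form the first cycle and CT36 to CT56 the second, so each of 6 phases of the day was read in 2 pools that lie 24 h apart. Phases 12, 16 and 20 h are the subjective night, when mice are active, and phases 0, 4 and 8 h the subjective day. No group was kept in light or left untreated. Since a time point is 1 pool, the p-values reflect how pools vary rather than how single mice do.

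Necklace neurons are a small population of sensory neurons whose axons end in a ring of glomeruli around the caudal olfactory bulb. Many of them use the receptor guanylyl cyclase GC-D in place of the cAMP pathway of ordinary olfactory neurons, respond to the guanylin peptides and to carbon disulfide, and are known for their part in socially acquired food preference. In these cells a rise of cGMP opens a channel that contains Cnga3, Pde2a breaks the nucleotide down, and Car2 turns CO2 into bicarbonate, which can also stimulate the cyclase. Ms4a proteins cross the membrane several times, are reported to detect odorants in necklace neurons that lack ordinary odorant receptors, and are also known from cells of the immune system.

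The array read the whole epithelium, in which the defining markers of ordinary olfactory neurons (12 of 12 measured, Omp and Gnal among them) had a list mean between 11.8 and 12.1 log2 units. The array medians lay between 7.81 and 7.92. In such bulk tissue fewer cells of a type and less RNA per cell cannot be told apart. Several of the 8 genes, Pde2a and Car2 among them, are made by other cells as well, and the values do not tell which cells made the RNA. The values hold no detection call, and the 8 genes are not ranked by level, since probes differ in brightness. Clock genes served as a check of the time labels: in the 24 h fit of limma Dbp peaked at 7.8 h (amplitude 0.51 log2 units), Nr1d1 at 6.0 h (0.42) and Arntl at 21.6 h (0.35). The array of CT56 was the least like the rest (mean correlation 0.975), and results that rest on it are given without it as well.

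Gucy2d, the receptor guanylyl cyclase GC-D, read 7.43, 7.54, 7.49, 7.40, 7.58 and 7.43 log2 units from CT12 to CT32. In the second cycle, from CT36 to CT56, it read 7.64, 7.36, 7.42, 7.004, 7.70 and 7.14. The first cycle was flat, and the highest and the lowest value of the series, at CT52 and CT48, came from neighbouring times of the second cycle, 1.62-fold apart. The standard deviation (SD) between pools of the same phase was 0.17 log2 units. Ordered by the mean of the 2 pools, the phases ran 4, 12, 20, 16, 8 and 0 h, and no neighbours in that order lay farther apart than this SD.

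Cnga3, a subunit of the channel that cGMP opens, read 7.15, 7.33, 7.32, 7.12, 7.28 and 7.17 in the first cycle. It read 7.40, 7.12, 7.19, 6.78, 7.48 and 6.85 in the second. The same pools as for Gucy2d, CT52 and CT48, held the highest and the lowest value, 1.63-fold apart. The order of the phases was also the same, 4, 12, 20, 16, 8 and 0 h, and 1 gap between neighbours, 16 h over 8 h, exceeded the SD of 0.18 between pools of a phase.

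Pde2a, the phosphodiesterase that breaks down cGMP in these cells and one that many other cells make, read 8.08, 7.96, 7.95, 8.03, 8.01 and 8.03 in the first cycle. In the second it read 8.07, 7.93, 7.75, 7.81, 7.95 and 7.91. It was lower in the second cycle at 6 of 6 phases, and its whole range was 1.26-fold. Car2, a cytosolic carbonic anhydrase with wide expression outside the necklace system, read 9.85, 9.75, 9.85, 9.76, 9.74 and 9.88, then 9.73, 9.91, 9.88, 9.89, 9.75 and 9.95. Its highest pool, CT56, was 1.17-fold above its lowest, CT36. Only 7.5% of all genes had a smaller SD over the pools than Car2, and 21.2% a smaller one than Pde2a, against 85.7% for Gucy2d and 88.3% for Cnga3.

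The stretches before the starts of 3 Ms4a genes are shown because they differ in what they share. The windows were taken from RefSeq (build GRCm38.p6), run 5′ to 3′ on the gene's strand and stop before the outermost start of the gene. In Ms4a6b (chr19:11518309-11518558, plus strand) and Ms4a6c (chr19:11469118-11469352, plus strand) capitals mark runs of at least 12 identical bases in an alignment of both. In Ms4a15 (chr19:10993300-10993500, minus strand) capitals mark matches to the motifs AGGTCA and GAGGAA.

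Ms4a6b: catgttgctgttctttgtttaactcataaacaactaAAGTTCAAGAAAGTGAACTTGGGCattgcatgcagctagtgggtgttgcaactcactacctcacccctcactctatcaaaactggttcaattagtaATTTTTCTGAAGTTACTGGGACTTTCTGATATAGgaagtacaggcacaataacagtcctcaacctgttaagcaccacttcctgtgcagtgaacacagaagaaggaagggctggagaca
Ms4a6c: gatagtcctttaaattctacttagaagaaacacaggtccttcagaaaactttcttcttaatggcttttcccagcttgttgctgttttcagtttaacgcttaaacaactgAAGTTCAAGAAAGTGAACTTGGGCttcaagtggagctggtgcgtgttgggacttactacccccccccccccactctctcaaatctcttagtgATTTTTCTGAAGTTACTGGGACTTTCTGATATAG
Ms4a15: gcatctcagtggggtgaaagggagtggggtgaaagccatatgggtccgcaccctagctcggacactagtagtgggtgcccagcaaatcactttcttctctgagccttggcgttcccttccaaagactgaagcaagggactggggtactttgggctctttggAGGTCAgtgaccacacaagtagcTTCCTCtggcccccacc

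Ms4a6b and Ms4a6c, neighbours in the Ms4a cluster, shared identical runs of 24 and 34 bases, the latter up to the end of the stretch printed for Ms4a6c. In the full windows of 250 bases, which for Ms4a6c hold 15 more bases than printed, their longest shared run was 48 bases. The longest run shared by any other pair of Ms4a genes among the members was 10 bases in such windows. Windows of 250 bases before annotated starts were found for 7 of the 8 members, 13 windows in all, and were searched on both strands for 5 motifs. AGGTCA, the core of sites for ROR and REV-ERB factors, occurred in Ms4a15 at base -89 before the annotated transcript start and in 14.0% of 32851 windows of all genes. Positions in Ms4a15 are counted from that start, and the printed stretch leaves out the 49 bases next to it. GAGGAA, a core of sites for the myeloid factor PU.1, occurred at -66 in Ms4a15 and in windows of Cnga3 and Pde2a, and in 23.3% of all windows. The D-box TTANGTAA was in 1 of the windows of Ms4a7 and in 2.06% of all. The E-box CACGTG (6.02% of all windows) and CCCNNGGG, a form of the site of the olfactory factor EBF (11.8%), were in 0 of the 13. Motif matches do not overlap in the stretch shown for Ms4a15, and a match describes letters only.

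Ms4a6b read 5.81, 5.92, 5.98, 5.90, 6.03 and 6.06 in the first cycle and 5.95, 6.24, 6.10, 5.90, 5.85 and 6.21 in the second. In each of the 12 pools its probe was dimmer than the 25th percentile of the array, which ran from 6.57 to 6.71, a statement on brightness and not on abundance. Its range was 1.35-fold, and no neighbouring phases lay farther apart than the SD of 0.13 between pools of a phase.

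Ms4a6c read 6.52, 6.69, 6.84, 6.78, 7.12 and 6.69 in the first cycle. It read 6.75, 6.94, 6.91, 6.62, 7.06 and 7.59 in the second. Among the 8 genes it had the widest range, 2.10-fold from CT12 to CT56, and 97.1% of all genes had a smaller SD over the pools. The 2 pools of phase 8 h, CT32 and CT56, differed by 0.90 log2 units, whereas the next largest difference between pools of a phase was 0.25. Without CT56 the highest pool was CT28 at 7.12, and the SD over pools was 0.18 in place of 0.29.

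Ms4a7 read 6.79, 7.03, 7.24, 7.01, 7.10 and 6.98, then 6.87, 7.13, 7.30, 7.10, 7.07 and 7.70. It too was highest at CT56 and lowest at CT12, 1.87-fold apart. Without CT56 the highest pool was CT44 at 7.30, and the SD went from 0.23 to 0.15. The phase of 12 h was the lowest in both cycles, and its distance of 0.22 log2 units from the next phase was the only gap between neighbouring phases that exceeded the SD of 0.21.

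Ms4a15 read 8.40, 8.43, 8.38, 8.16, 8.38 and 8.22 in the first cycle and 8.70, 8.60, 8.13, 8.15, 8.51 and 8.27 in the second. In the first cycle the 3 night pools all lay above the 3 day pools, though CT20 and CT28 both came to 8.38, and in the second cycle night and day overlapped. Phases 12 and 16 h were the highest by mean, and phase 0 h the lowest. The range was 1.48-fold, and 1 gap, between 4 h and 20 h, exceeded the SD of 0.13.

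The question put to the time course was which genes follow the day. In the 24 h fit with limma, 0 of the 8 genes passed an adjusted p of 0.05, against 0.0251% of all genes (5 of 19937). At an unadjusted p under 0.05 the count was 0 of 8, against 3.54% (706 genes), and without CT56 it was 1 of 8, Ms4a7, against 5.72%. The fitted amplitude, the distance from mean to peak, was 0.16 ± 0.10 log2 units (SE) for Ms4a6c with a peak at 5.5 h and 0.14 ± 0.06 for Ms4a15 with a peak at 12.7 h. For Pde2a it was 0.08 ± 0.04, for Ms4a7 0.07 ± 0.09, and for Gucy2d and Cnga3 0.05 ± 0.08 each. Ms4a6b had 0.04 ± 0.06 and Car2 0.02 ± 0.04. Leaving out CT56 moved most of these: Ms4a7 then had 0.16 ± 0.05, Gucy2d 0.11 ± 0.07, Cnga3 0.09 ± 0.07 and Ms4a6c 0.10 ± 0.07, while Ms4a15 had 0.16 ± 0.06 and Pde2a 0.11 ± 0.04. Car2 and Ms4a6b had 0.04 and 0.06. The adjusted p of limma was 0.996 for each of the 8 genes, and their median amplitude of 0.059 stood beside 0.065 over all genes.

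Night and day differed for 0 of the 8 genes and for 0% of all genes at an adjusted p of 0.05 in limma. At an unadjusted p under 0.05 the counts were 0 of 8 and 1965 genes (9.86%), with 4.17% higher and 5.69% lower at night. Ms4a15 had a night minus day difference of 0.16 log2 units, with a 95% confidence interval from -0.03 to 0.35 (limma, adjusted p = 0.506), 8.44 against 8.28. Cnga3 differed by 0.14 (-0.08 to 0.36) and Gucy2d by 0.10 (-0.11 to 0.32) in the same direction, and by 0.08 and 0.06 without CT56. Ms4a6c had -0.20 (-0.49 to 0.08) and Ms4a7 -0.10 (-0.35 to 0.15). Without CT56 Ms4a6c had -0.08 and Ms4a7 0.01, so the direction of the latter rested on that pool. The intervals of Car2 (-0.12 to 0.12), Pde2a (-0.14 to 0.14) and Ms4a6b (-0.16 to 0.18) were centred near 0.

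The cycles differed for 0 of the 8 genes and 0% of all genes at an adjusted p of 0.05 in limma, with phase as a factor. At an unadjusted p under 0.05 the counts were 0 of 8 and 2625 genes (13.2%), of which those higher in the later cycle made 4.22% of all genes and those lower 8.94%. The second minus first cycle difference was -0.11 for Pde2a (95% interval -0.22 to 0.01; limma, adjusted p = 0.409), -0.10 for Gucy2d (-0.28 to 0.07) and -0.09 for Cnga3 (-0.28 to 0.09). With phase as a factor, leaving out CT56 also takes the weight from CT32, then the only pool of its phase. Such values therefore rest on the other phases and cannot be credited to CT56 alone. Without this pair Pde2a kept -0.10, and Gucy2d and Cnga3 had -0.06 and -0.05. The 4 Ms4a genes all had positive values, as had 38.3% of all genes. Ms4a6c had 0.21 (-0.04 to 0.45) and Ms4a7 0.17 (-0.02 to 0.36), and without the pair of CT32 and CT56 these were 0.07 and 0.06. The values of Ms4a6b, Ms4a15 and Car2 were 0.09, 0.06 and 0.04.

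**Figure D1:**
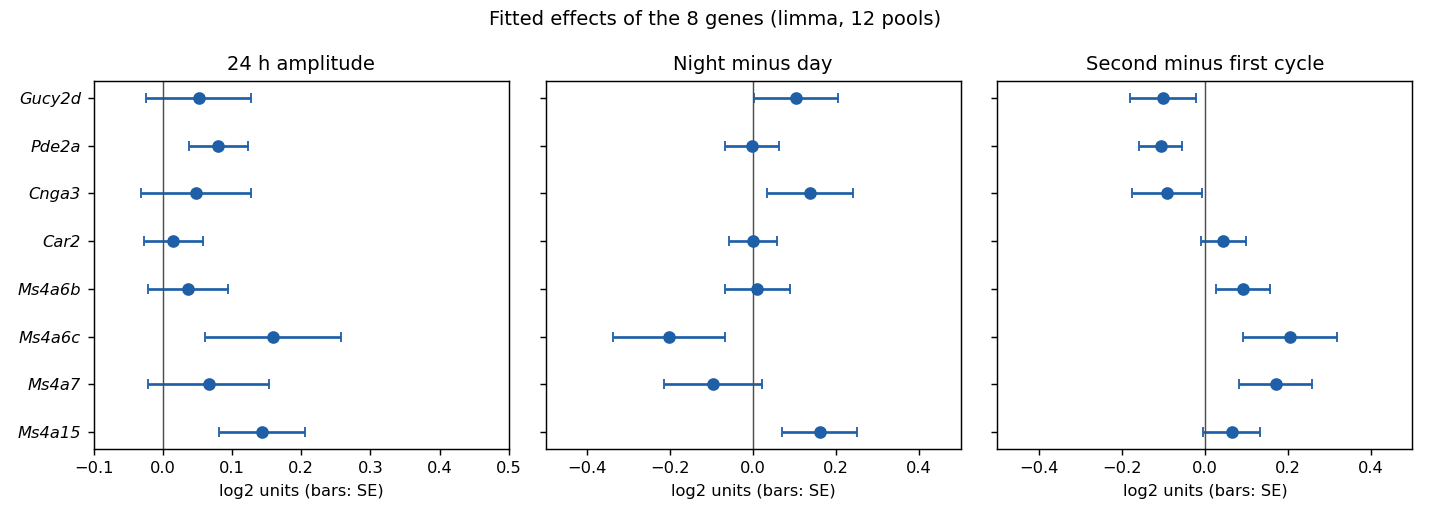
Fitted effect of each gene in log2 units (x axes; points are limma estimates over 12 pools, bars their SE) for the 24 h amplitude, night minus day and second minus first cycle. The night minus day values run from -0.20 for Ms4a6c to 0.16 for Ms4a15, and the amplitudes from 0.02 for Car2 to 0.16 for Ms4a6c, which has 0.10 without CT56.

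A 12 h rhythm beside the 24 h terms passed an adjusted p of 0.05 in limma for 0 of 8 genes and 0% of all genes. Ms4a7, with an amplitude of 0.21 ± 0.07, was the 1 gene of 8 at an unadjusted p under 0.05, a level that 1063 genes (5.33%) reached. Without CT56 its 12 h amplitude was 0.11 ± 0.04. A change of the 24 h rhythm between cycles passed for 0 of 8 genes and 0% of all, and at an unadjusted p under 0.05 for 0 of 8 and 143 genes (0.717%). Ms4a6c had a vector difference of 0.36 ± 0.18 log2 units (limma, adjusted p = 1.00), and 0.21 ± 0.13 without CT56. That of Ms4a7 fell as well, from 0.20 to 0.09. For the rest it rose without CT56, among them Cnga3 from 0.12 to 0.33, Gucy2d from 0.12 to 0.30 and Ms4a15 from 0.18 to 0.33. Of the 8 genes 1, Ms4a15, was then at an unadjusted p under 0.05 in limma, against 8.52% of all genes.

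Gucy2d and Cnga3 moved together from pool to pool. Over the 12 pools their Pearson correlation was 0.984 and Spearman's rho 0.951 (permutation test, 100000 resamples, p adjusted over the 28 pairs of members 0.00028 and 0.00056). Without the 2 pools farthest from the median, r was 0.954. Within the first cycle it was 0.845 and within the second 0.997, each over 6 pools. Among the 19936 other genes Cnga3 was the one most like Gucy2d, followed by Slc28a1 (0.980) and 1700028I16Rik (0.977). For Cnga3 the order was Olfr767 (0.992), Tmem239 (0.988) and Gucy2d.

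Many other genes had the same course. In all, 500 genes correlated with Gucy2d at r over 0.9 and 627 with Cnga3, and the probes of 86.2% and 85.5% of them were dimmer than the median probe. Gucy2d and Cnga3 also followed the 25th percentile of the array, a measure of its dim end chosen after the data were seen, at r = 0.751 and 0.766 (permutation test, adjusted p = 0.014 for both), with a rho of 0.706 and 0.839. Without the 2 pools farthest from the median of that percentile the values were 0.553 and 0.609. Over all pools 86.5% and 87.8% of all genes had a lower r with the percentile, so many other genes followed it as closely. With the percentile removed by regression, Gucy2d and Cnga3 correlated at 0.962, and after quantile normalization, which gives all arrays the same distribution, at 0.963. The first principal component, the main pattern that all genes share over the pools, held 40.1% of the variance. Gucy2d correlated with it at 0.880 and Cnga3 at 0.898, and whether the pair moves together beyond this component was not tested. Ms4a15 followed the percentile most closely of the 8 genes, at r = 0.854 (permutation test, adjusted p = 0.0034), with a rho of 0.804, and r was 0.734 without the 2 farthest pools. Of all genes 95.9% had a lower r than Ms4a15. With the percentile as a covariate its night minus day difference was 0.01 in place of 0.16, Cnga3's was -0.03 and Gucy2d's -0.06.

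**Figure D2:**
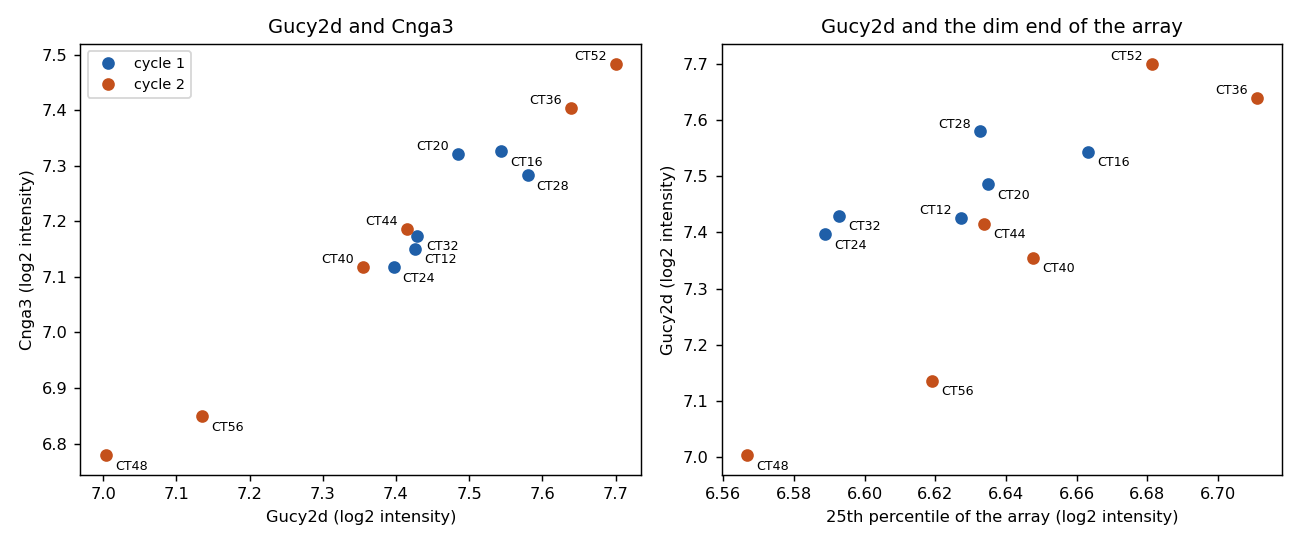
Left, Cnga3 against Gucy2d, and right, Gucy2d against the 25th percentile of all probes of the same array, all in log2 intensity, 1 labelled point per pool, first cycle in blue and second in orange. The left points lie close to a line (r = 0.984), with CT48 and CT56 at the low end, and the right points scatter more (r = 0.751).

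Car2 had the opposite course to the cyclase and the channel, with r = -0.776 against Gucy2d and -0.742 against Cnga3 (permutation test, adjusted p = 0.018 and 0.030). The values of rho were -0.853 and -0.755. Without the 2 pools farthest from the median these were -0.790 and -0.660, but after quantile normalization they were -0.241 and -0.167. Within the first cycle they were -0.564 and -0.270, and within the second -0.837 and -0.851. Ranked by r from the highest down among the 19936 other genes, Car2 was number 19187 for Gucy2d and 18727 for Cnga3. Many other genes thus ran against the pair more strongly. Car2 correlated with the first principal component at -0.802, and whether it runs against the pair beyond this component was not tested. The genes most like Car2 were C1d (0.931), Nxt2 (0.922) and Slc25a40 (0.915). Pde2a correlated with Gucy2d at 0.499 and with Cnga3 at 0.411, and neither passed the test. Those most like Pde2a were Rgs9 (0.898), a regulator of G protein signalling, Acrbp (0.881) and Reep6 (0.868).

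Ms4a6c and Ms4a7 correlated at r = 0.829 (permutation test, adjusted p = 0.030), with a rho of 0.636 (adjusted p = 0.151). Without CT56 r was 0.542, and without the 2 pools farthest from the median 0.595. Within the first cycle, which does not hold CT56, it was 0.679, and within the second 0.841. Ms4a6b correlated with Ms4a7 at 0.668 and with Ms4a6c at 0.601, which did not pass, and without CT56 these were 0.522 and 0.396. Pde2a and Ms4a7 ran against each other in rank, with rho = -0.916 (permutation test, adjusted p = 0.001), while r was -0.605 with CT56 and -0.805 without it.

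Some of the genes most like Ms4a6c are known from immune cells: after Spag16 (0.925) came Ifitm1 (0.914) and Fcer1g (0.913), the shared chain of Fc receptors. Ms4a7 was most like Snord22 (0.935), Gtpbp10 (0.928) and Ecm2 (0.925), Ms4a6b like Chn2 (0.885), Txndc15 (0.856) and Rgs2 (0.854), and Ms4a15 like Tacr2 (0.963), Gm33152 (0.958) and Sprr2k (0.932). These lists describe 12 shared arrays and carry no test.

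Ms4a6c and Ms4a7 are also known from macrophages, so the members were set beside marker lists of 10 cell types, 80 pairs of a gene and a list mean. Of the macrophage markers 16 of 17 were measured, and their mean ran from 7.57 log2 units at CT48 to 7.83 at CT28, with 7.62 to 7.77 in night pools and 7.57 to 7.83 in day pools. At CT56 it was 7.76. On a log2 intensity scale no marker can be read as 0. Ms4a6c correlated with this mean at 0.613, Ms4a7 at 0.387 and Ms4a6b at 0.348 (permutation test, adjusted p = 0.153, 0.491 and 0.499). The mean of olfactory neuron markers ran the other way, at r from -0.567 to -0.598 for these 3 genes, which did not pass either. The part of macrophages in the values of the Ms4a genes was not tested.

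**Figure D3:**
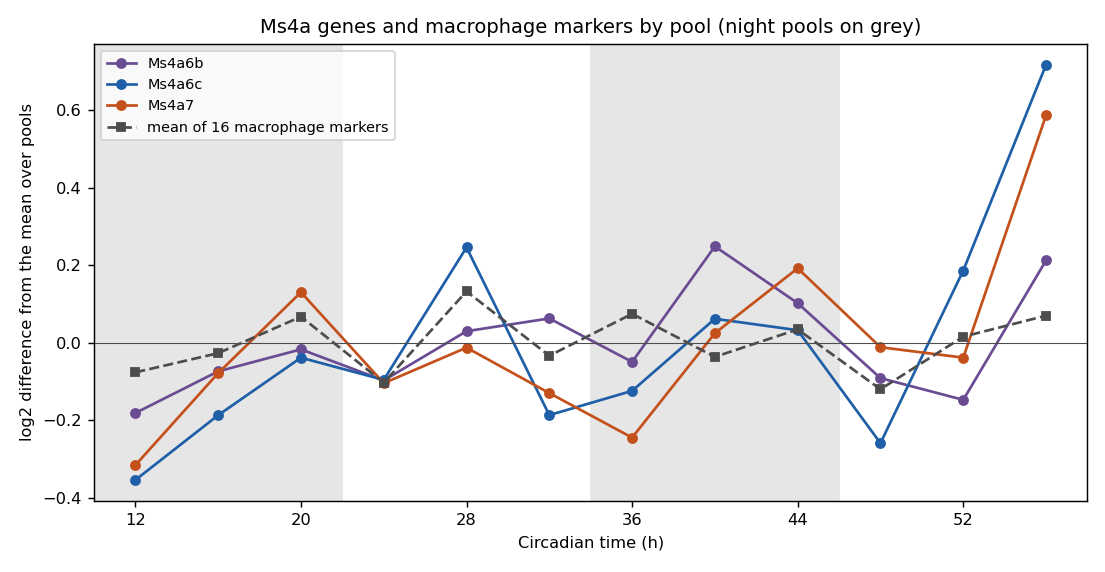
Difference from the mean over pools in log2 units (y axis) against circadian time in h (x axis) for Ms4a6b, Ms4a6c and Ms4a7 (circles) and for the mean of 16 macrophage markers (squares, dashed), 1 point per pool, night pools on grey. At CT56 Ms4a6c and Ms4a7 lie far above their means. The macrophage markers also lie above theirs at CT56, with a list mean of 7.76 log2 units in a range of 7.57 to 7.83.

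Across the 80 pairs, 7 passed an adjusted p of 0.05 in the permutation test. The share of all genes that follow these lists as closely was not computed, so the count cannot be called particular to the members. As given above, 500 and 627 genes had an r over 0.9 with Gucy2d and Cnga3. Gucy2d followed the lymphocyte markers (10 of 12 measured) at 0.933 and the red cell markers (4 of 12 measured) at 0.908. Cnga3 followed them at 0.944 and 0.942, and all of these had an adjusted p of 0.0002, from the smallest p that the permutations can give. Spearman's rho lay between 0.881 and 0.951 for these 4 pairs, and r without the 2 pools farthest from the median between 0.798 and 0.920. The mean of the lymphocyte markers ran from 6.67 to 6.93 in night pools and from 6.48 to 6.86 in day pools, and that of the red cell markers from 7.04 to 7.22 and from 6.87 to 7.30. Car2 had -0.789 with the lymphocyte markers and a rho of -0.804 (permutation test, adjusted p = 0.037 and 0.033). The markers of oligodendrocytes and brain correlated with Ms4a15 at 0.795 and with Cnga3 at 0.769 (permutation test, adjusted p = 0.033 and 0.038), with a rho of 0.867 and 0.657, of which the latter did not pass. These last 3 relations were less stable than those of Gucy2d and Cnga3 with lymphocyte markers: under 16 alternatives Car2 with lymphocyte markers passed in 6, with r as weak as -0.131, and Ms4a15 and Cnga3 with brain markers in 8 and 4. The part of these cells, and of the dim end of the array, in the course of Gucy2d and Cnga3 was not tested. Olfactory neuron markers correlated with Gucy2d at -0.018 and with Cnga3 at -0.034.

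Other genes of the pathway were taken from lists of related genes, and 0 of them passed an adjusted p of 0.05 in any of the comparisons in limma. Of the guanylin peptides and other guanylyl cyclases, 13 of 14 were measured, and 12 of the 13 had a higher mean at night, beside 48.5% of all genes, with a median difference of 0.09 against 0.00 over all genes. Some marker lists of other cells leaned the same way, with 10 of 10 lymphocyte, 10 of 10 bone and 9 of 9 brain markers higher at night (medians 0.12, 0.15 and 0.12). So did 10 of 12 endothelial, 8 of 11 monocyte and neutrophil and 3 of 4 red cell markers. The remaining lists had 9 of 16 macrophage, 5 of 10 microvillar and ionocyte, 5 of 12 olfactory neuron and 3 of 9 sustentacular markers higher at night. Guca2a, which encodes guanylin, a ligand of GC-D, had the largest difference of the 13 peptides and cyclases, 0.19 log2 units (limma, adjusted p = 0.497). It was the 1 of the 13 at an unadjusted p under 0.05, which 4.17% of all genes reached in that direction. Among the other 5 channel subunits, Cngb1, part of the cAMP-gated channel of ordinary olfactory neurons, had a second minus first cycle value of -0.22 (limma, adjusted p = 0.304), and 2 of the 5 were lower at an unadjusted p under 0.05, a level that 8.94% of all genes reached in that direction. Of the olfactory neuron markers, 11 of 12 had a lower mean in the second cycle, beside 61.7% of all genes, and so had Pde2a, Gucy2d and Cnga3.

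In the 24 h fit the gene with the smallest p was Pde11a among 24 other phosphodiesterases and cGMP kinases, with an amplitude of 0.10 ± 0.04. Among 15 other carbonic anhydrases it was Car3, with 0.15 ± 0.05, and among the channel subunits Cnga4, with 0.11 ± 0.06. Of the rest of the Ms4a family 13 of 15 genes were measured. Their 24 h amplitudes ran from 0.02 to 0.07, with Ms4a3 at 0.07 ± 0.04, against 0.04 to 0.16 for the 4 members. The 0.16 is that of Ms4a6c, which has an SE of 0.10 and an amplitude of 0.10 without CT56. At an unadjusted p under 0.05 in limma were 0 of the 4 and 0 of the 13, against 3.54% of all genes. The second minus first cycle values of the other Ms4a genes ran from -0.08 to 0.14, with 7 of 13 above 0, beside 4 of 4 for the members and 38.3% of all genes.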

How the data were processed

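The authors deposited 1 value per probe and pool. The sources used here do not give the scale, background correction or normalization, and the submitters' processing notes name only the tool affy. From their range (3.48 to 14.5) the deposited numbers were taken for log2 intensities, since the natural log of a 16-bit scanner value ends at 11.09, and they were not changed. Of 34760 probes 21640 carry 1 gene symbol in the platform annotation, 1321 several, and 11799 are not listed. The gene annotation of RefSeq (GRCm38.p6) held 21553 of the 21640 by Entrez ID and changed 0 symbols. A gene was represented by its probe with the highest mean, which left 19937 genes.

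All comparisons were fitted on all genes with limma 3.58.1 in R 4.3.3 (version 1.17.8 of the data.table package), with Benjamini-Hochberg adjustment: a 24 h cosine, night minus day, cycle with a factor for phase, 12 h beside 24 h terms, and the 24 h terms by cycle. Correlations over pools were tested two-sided with 100000 permutations. The fits were tested on simulated data. Python 3.11.15, numpy 2.4.6, pandas 2.3.3, biopython 1.88 and matplotlib 3.10.9 were used for the rest.

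The members and lists were chosen with earlier results of these data known. Named were all members, the 3 genes most like each by Pearson correlation, and of each other list of pathway genes those past the threshold or else the gene with the smallest 24 h p. Guca2a and Cngb1 in the contrasts were named after their values were seen, and the correlations between members and with the 25th percentile were added then. Alternatives were quantile normalization, median centring, filters on dim genes at the 25th and 50th percentile, averaging of a gene's probes, a trended robust prior, array weights, other periods and terms, and leaving out each pool. The number of arrays limits the precision.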

Additional observations from a re-analysis of the deposited data

Results flagged for a closer look

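The CT56 pool stood apart from the other 5 subjective day pools in Ms4a7. It read 7.70 log2 units against a highest value of 7.10 in the rest, and this gap was 0.835 of the whole range of the day pools, above Dixon's 95% critical value for 6 samples. It was the 1 group of 32 past that value (8 genes, with night pools, day pools and the pools of each cycle as groups), where chance flags about 1 in 20, or 1.6 groups. Ms4a6c was also highest at CT56, at 7.59 against 7.12, without passing the criterion.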

How the results depend on the processing

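Under every alternative run, 0 of the 8 genes passed an adjusted p of 0.05 in the 24 h, night minus day, cycle, 12 h and interaction fits: 0 of 824 values, with a smallest adjusted p of 0.459, 0.144, 0.153, 0.109 and 0.132 in these fits (limma). The 24 h fit with phase as a factor is not among the 824 values or these smallest ones. Some of the 824 could not differ: each member has 1 probe, so averaging of probes left its estimate unchanged. In the cycle fit, leaving out either pool of a phase gives the same result. Calls were few among all genes too: the main 24 h fit had 5, array weights gave 7 and a period of 22 h gave 0. The filter at the 50th percentile of level left 2 members, Car2 and Ms4a15. With the 25th percentile of the array as a covariate, chosen after seeing the data, 3 of 8 members were at an unadjusted p under 0.05 between cycles, Gucy2d, Cnga3 and Pde2a, as were 19.2% of all genes, against 0 of 8 and 13.2% without it. Over all alternatives the number of members at that level ran from 0 to 2 in the 24 h, night minus day and 12 h fits and from 0 to 3 in the cycle and interaction fits. In the 24 h fit it was 1 of 8 without CT56 (Ms4a7; 5.72% of all genes), without CT52 (Ms4a15; 6.12%), with array weights (Ms4a15; 7.14%) and with phase as a factor (Ms4a15; 16.9%), and 2 of 8 without CT32 and CT56 (both genes; 10.7%). In the night minus day fit the 2 of 8 came without CT52, where 20.9% of all genes were at that level. The 3 of 8 in the interaction fit came with array weights, beside 27.2% of all genes. In the 12 h fit 2 of 8 were reached in settings where 3.87% to 28.4% of all genes were. The number of correlations between a member and a marker list past an adjusted p of 0.05, which was 7, was 2 after quantile normalization and 11 after median centring, and from 4 to 11 without single pools. A share of all genes was not computed for these counts. Gucy2d and Cnga3 kept their correlation with the lymphocyte markers past 0.05 in 16 of 16 alternatives, and with the red cell markers in 15 of 16, quantile normalization being the exception, at r = 0.696 and 0.784. The cause of these changes was not tested. The labels give a single pool per time point. Signal over background could not be set for dim probes such as that of Ms4a6b, since the values hold no detection call.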
